A study of Homo sapiens with 24 samples.

Results

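The libraries described here were the controls of separate experiments in A549, a human lung adenocarcinoma cell line that carries the wild-type genotype label in every sample. Members were chosen by their labels alone: the 3 libraries of control_FDI6, which were the controls of the FDI-6 experiment, and the 4 libraries of siControl, which received a scrambled small interfering RNA. These were 7 of the 24 libraries in the series. FDI-6 is a small molecule that inhibits FOXM1, and in that experiment the treated cells, which were not used here, received 20 µM for 24 hours. No transfection is named for control_FDI6, and the sample labels name no vehicle, while the study lists its comparison as one of FDI-6 with the solvent DMSO. The siControl cells were transfected with 25 nM of scrambled siRNA and the lipid reagent DharmaFECT1, and the time from transfection to harvest is not given in the sources used here. A further group of 3 libraries, siControl_Both, received scrambled siRNA as the control of a double knockdown of MYBL2 and FOXM1, and it served as a yardstick because it differed from siControl by experiment while both had been transfected. Transfection, the scrambled siRNA, any solvent and the experiment, with its culture, extraction and sequencing, changed together between control_FDI6 and siControl, so their effects cannot be told apart. The culture medium is given as DMEM or RPMI with serum and not by group.

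A lipid complex carries an siRNA into a cell, where the strands are loaded into an Argonaute protein and silence matching transcripts. Double-stranded RNA can also be recognised by sensors in endosomes and in the cytosol, such as TLR3, RIG-I and the kinase PKR, whose signals turn on NF-kB and interferon genes. A cell also adjusts other programs to its surroundings, among them sterol synthesis under SREBP2, protein folding in the endoplasmic reticulum and the response to growth factors. Whether the lipids or the culture conditions reached these programs here was not tested. A scrambled control is meant to hold all of these constant between a knockdown and its own control.

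Each library was sequenced as paired ends from polyadenylated RNA, and 18856286 to 21039750 read pairs were counted on genes in control_FDI6, 23964711 to 28880535 in siControl and 23373997 to 27659364 in siControl_Both. Levels are given as normalized counts (CPM), the count of a gene relative to its library's total after scaling by the trimmed mean of M values. Genes are compared with each other in TPM, the same kind of relative count divided by the merged length of all exons of the gene. A gene was called when the quasi-likelihood test of edgeR gave a Benjamini-Hochberg adjusted p under 0.05 and the fold change exceeded 1.5, and it was said to lie within 1.5-fold when the whole 95% interval of its log2 fold change stayed inside that bound. Fold changes are control_FDI6 over siControl unless stated, so a negative log2 value means a lower level in control_FDI6. Over the 16125 genes tested, Spearman's correlation of levels, across genes that are not independent replicates, was 0.995 for every pair within control_FDI6, 0.981 to 0.995 within siControl and 0.962 to 0.971 between them. Replicate 4 of siControl stood furthest from its group, and results that turn on it are given with and without it. The study calls its replicates biological, but nothing in the labels says that they came from separate cultures, so p-values measure the spread between these libraries, which may be technical.

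Much of the expressed program was shared by both control groups. At 1 TPM or more in all 7 libraries there were 13298 genes, of which 11434 coded for proteins. Among the 50 genes with the highest mean TPM in each group 43 were shared, and 408 of the highest 500 were shared. FTL, the light chain of the iron store ferritin, led the nuclear genes at 31200 ± 546 TPM (mean ± SD, n = 3) in control_FDI6 and 22860 ± 1160 TPM (n = 4) in siControl. The hair keratin gene KRT81 had 10730 ± 447 and 6998 ± 798 TPM, and both genes were called higher in control_FDI6, at log2 fold changes of 0.71 and 0.88. ALDH1A1, an aldehyde dehydrogenase that oxidises retinal, had 9109 ± 197 and 9640 ± 1450 TPM. Its normalized counts were 8129, 7728 and 8101 in control_FDI6 and 6680, 6142, 6962 and 8367 in siControl, so the groups overlapped.

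ALDH1A1 lay within 1.5-fold (log2 0.18), as did TMSB10 (0.16), a thymosin that binds actin monomers, and ACTG1 (0.24), the cytoplasmic gamma actin. GAPDH, a glycolytic enzyme (0.38), and HSP90AB1, a cytosolic chaperone (0.37), also lay within that bound. These were the 5 genes of highest TPM within the bound, with mitochondrial and ribosomal protein genes set aside. Among the other highest genes the log2 fold change was 0.51 for ACTB, 0.35 for IGFBP4, a binding protein of insulin-like growth factors, and −0.48 for the aldo-keto reductase AKR1B10, and none of the 3 was called. The pseudogene RPL41P1, which resembles a ribosomal protein gene, was also among the 10 highest and was called higher (1.54). In all, 5684 genes (35.2%) lay within 1.5-fold, and 5948 genes were neither called nor within it.

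**Figure D1:**
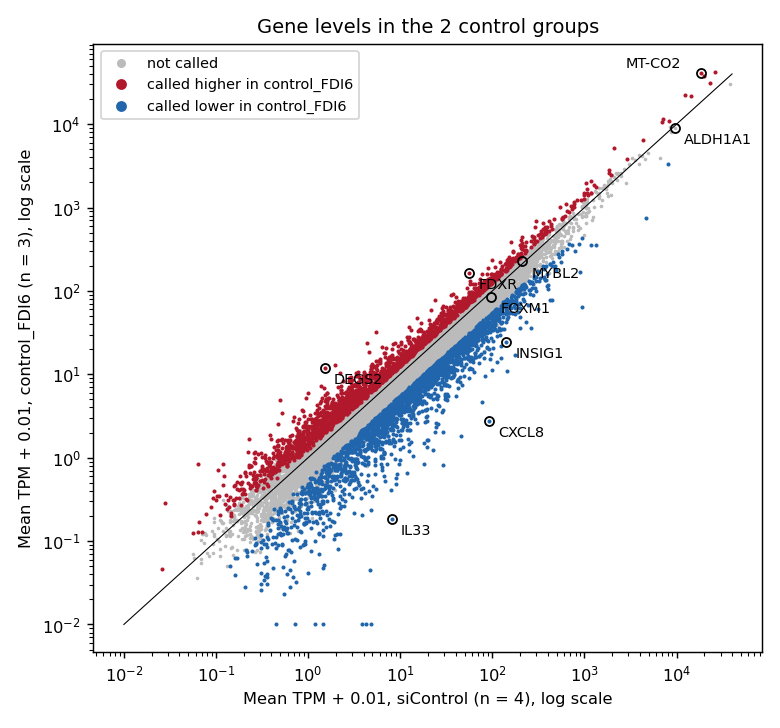
Each point is a tested gene, with its mean TPM plus 0.01 in siControl (4 libraries) on the horizontal axis and in control_FDI6 (3 libraries) on the vertical axis, both on log scales, and the diagonal marks equal levels. Most genes lie along the diagonal over the whole range, 2007 genes called higher in control_FDI6 are red, 2486 called lower are blue, and the circled CXCL8 and IL33 lie furthest below among the labelled genes.

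The transcription factors that the study depleted differed by less than 1.5-fold between the control groups. MYBL2 (chr20:43667019-43716495, hg38), a B-Myb factor of proliferating cells, had 195, 198 and 187 normalized counts in control_FDI6, 144, 155, 175 and 130.1 in siControl and 155, 189 and 169.9 in siControl_Both. Every control_FDI6 value lay above the siControl values, by a log2 fold change of 0.36 (adjusted p = 0.0108, edgeR quasi-likelihood test), and the interval stayed within 1.5-fold. FOXM1 (chr12:2857680-2877174, hg38), a forkhead factor of the G2 and M phases, had 131, 126 and 129 in control_FDI6, 126, 128, 137 and 105 in siControl and 124, 141 and 139 in siControl_Both. Here the groups overlapped, and the log2 fold change was 0.05 with a 95% interval from −0.14 to 0.24.

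Of the 10 target genes that the study names, 3 were called higher in control_FDI6 and none lower, where 12.4% of all genes were called higher and 15.4% lower. The 3 were CDKN3 (0.78), a phosphatase that acts on cyclin-dependent kinases, CENPA (0.81), the centromeric histone variant, and NEURL1B (1.05), a ubiquitin ligase. The mitotic cyclin gene CCNB1 (0.51), the cyclin F gene CCNF (0.58), KNSTRN (0.51) and FAM83D (0.34), which act at the spindle, were not called. The genes CCNA2 (0.23), CDK1 (0.32) and BORA (0.05), which drive entry into mitosis, lay within 1.5-fold. With upper-quartile scaling 6 of the 10 were called higher. With the trends in GC content and length removed 4 were, and CCNB1 was then among them. Against siControl, siControl_Both had a median of −0.32 over these 10 genes, while control_FDI6 had 0.51 and the median of all genes was 0.01.

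Across all genes, 4493 of 16125 (27.9%) were called between control_FDI6 and siControl, 2007 of them higher (12.4%) and 2486 lower (15.4%) in control_FDI6. With upper-quartile scaling, under which the median of all genes was 0.095 in place of 0.01, 55.8% of calls were higher in place of 44.7%, so the balance of the directions depends on the scaling. Normalized counts of the groups did not overlap for 4273 of the called genes. The matching count over all genes tested is not given here, and genes not called, such as ACTB and CCNB1, also had no overlap. The number is therefore no separate result about the called genes. Of the genes called lower, 201 had under 10 counts in every control_FDI6 library and so passed the filter on low counts through siControl alone, as did 71 of those called higher through control_FDI6. Changes over 2-fold were found for 802 genes called higher and 1184 called lower, and changes over 4-fold for 57 and 286. The yardstick was smaller: siControl_Both against siControl, which also came from separate experiments, gave 2339 calls among 15963 genes (14.7%), and 1011 of these exceeded 2-fold against 1986. The 2 comparisons share the siControl libraries, and the difference between them was not tested. The siControl_Both libraries also had more pairs that were not aligned, 7.68% to 7.92%. The range was 1.97% to 2.12% in siControl and 1.73% to 1.93% in control_FDI6. What part this had in the yardstick was not tested. Against all 7 scrambled libraries as 1 group 4259 of 16432 genes (25.9%) were called, and among the genes named here as called, TNRC6B, PER1, SLC39A10, AEN, SLC7A11, PSMB5, PSMB6, H2BC11, COL3A1, LUM, CDH5 and CD14 were not, besides those described so beside their values.

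Fold changes varied with the GC content and the length of the transcripts. The genes were split into 5 groups of about equal size by either property. In the group with the lowest GC content the median log2 fold change was −0.31, with 149 genes called higher and 885 lower, and in the highest it was 0.30, with 726 higher and 199 lower. For the shortest transcripts the median was 0.32 and for the longest −0.35. In siControl_Both against siControl the medians ran from −0.22 in the group of lowest GC content to 0.15 in the second highest, and over the groups by length they stayed between −0.03 and 0.01. A fit that removed the trends with GC content and length called 3357 genes, 1658 higher and 1699 lower. Among the genes named here as called, KRT81, FTL, DTX3L, TLR3, ZC3HAV1, AGO2, TNRC6A, TNRC6B, HMGCS1, PMVK, TM7SF2, ELOVL5, ELOVL6, SEL1L, SPRED1, JUND, KDM3A, SLC30A1, SLC39A10, MTF1, THBS1, NDUFS8, NDUFB10, NDUFB7, MRPL36, BAX, AEN, SLC7A11, EIF4EBP1, PSMB5, PSMB6, PSMB9, HSPA1A, NORAD, SNHG16, LINC02870, H2BC11, CLDN1 and KRT18 were not called in that fit, while CCNB1 and MDM2 gained a call as higher. What part GC content and length had in the differences was not tested further. For BORA, ICAM1, HMGCS1, DDIT3, CA9, WIPI1, SNHG16 and ACTA2 at least 20% of the exonic length faces another gene on the other strand, and their reads cannot be told apart unless strand was used in the counting.

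**Figure D2:**
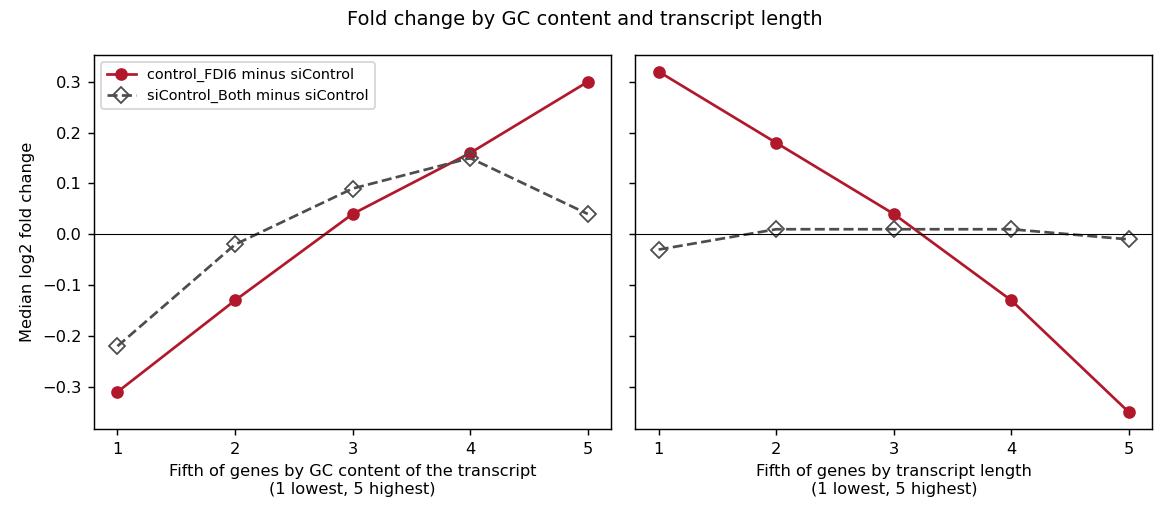
The median log2 fold change is plotted for 5 equal groups of genes ordered by the GC content of the transcript (left) and by transcript length (right), as filled circles for control_FDI6 minus siControl and open diamonds for siControl_Both minus siControl. With length the filled circles fall from 0.32 to −0.35 while the diamonds stay near 0, and with GC content the filled circles climb from −0.31 to 0.30.

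Chemokines and the feedback genes of NF-kB had the lowest median of the 28 lists with at least 10 tested members. Of the 33 genes on the list 23 passed the filter on low counts, and 17 of these 23 (73.9%) were called lower in control_FDI6 and none higher, with a median log2 fold change of −1.84. The group varied with the experiment as well, since 20 of the 23 were called higher in siControl_Both than in siControl, with a median of 1.51. A fit of control_FDI6 against siControl_Both was also run, and its calls are not described here. Many of these genes are read by NF-kB at sites close to their starts, and one such match each is printed for the chemokine genes CXCL8 and CXCL1, with 8 flanking bases on each side. The capitals mark the match to GGANTTTCC, and the sequences are from RefSeq on GRCh38.p14, on the plus strand at chr4:73740470-73740494 for CXCL8 and chr4:73869307-73869331 for CXCL1.
CXCL8: caaatcgtGGAATTTCCtctgacat
CXCL1: gaactccgGGAATTTCCctggcccg
The motif was searched on both strands from 250 bases before to 50 after each gene's start. It was found in 12 of the 18 list genes with a window (66.7%) and in 577 of all 35116 windows (1.64%), which describes the letters in these windows and no binding.

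CXCL8, which encodes the neutrophil attractant interleukin-8, had 1.77, 2.11 and 2.67 normalized counts in control_FDI6. In siControl it had 103, 80.5, 54.4 and 11.4, and in siControl_Both 418, 557 and 321. No values overlapped between any pair of groups, and replicate 4 was the lowest of siControl by a wide margin. The log2 fold change was −4.83 (SE 0.723, adjusted p = 0.000492, edgeR). CXCL1, a related chemokine gene, had 6.01, 7.24 and 8.23 in control_FDI6 and 111, 60.7, 65.4 and 11.8 in siControl, with replicate 4 again the lowest and a log2 fold change of −3.12. C3, the central complement component, had 32.8, 32.8 and 32.3 in control_FDI6. Its values were 199, 108, 172 and 178 in siControl and 927, 699 and 612 in siControl_Both. It was 5.03-fold lower in control_FDI6 than in siControl (adjusted p = 1.77e-05), with no overlap and with little spread within control_FDI6.

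The NF-kB inhibitor gene NFKBIA, itself a target of NF-kB, had 45.4, 47.3 and 45.8 in control_FDI6 and 105, 111, 80.4 and 64.8 in siControl, and it was called lower at log2 −0.97. TNFAIP3 (−2.06), which encodes the feedback enzyme A20, ICAM1 (−2.96), a leukocyte adhesion molecule, and REL (−1.89), an NF-kB subunit, were also called lower. For REL, 33.3% of its exons overlap another gene on the same strand. RELA, which encodes the main activating subunit, lay within 1.5-fold (0.11). IL6, which passed the filter through siControl alone, was near 0 in control_FDI6, at 0, 0 and 0.0534, and had 1.30, 0.523, 0.583 and 0 in siControl against 19.1, 22.9 and 13.8 in siControl_Both.

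**Figure D3:**
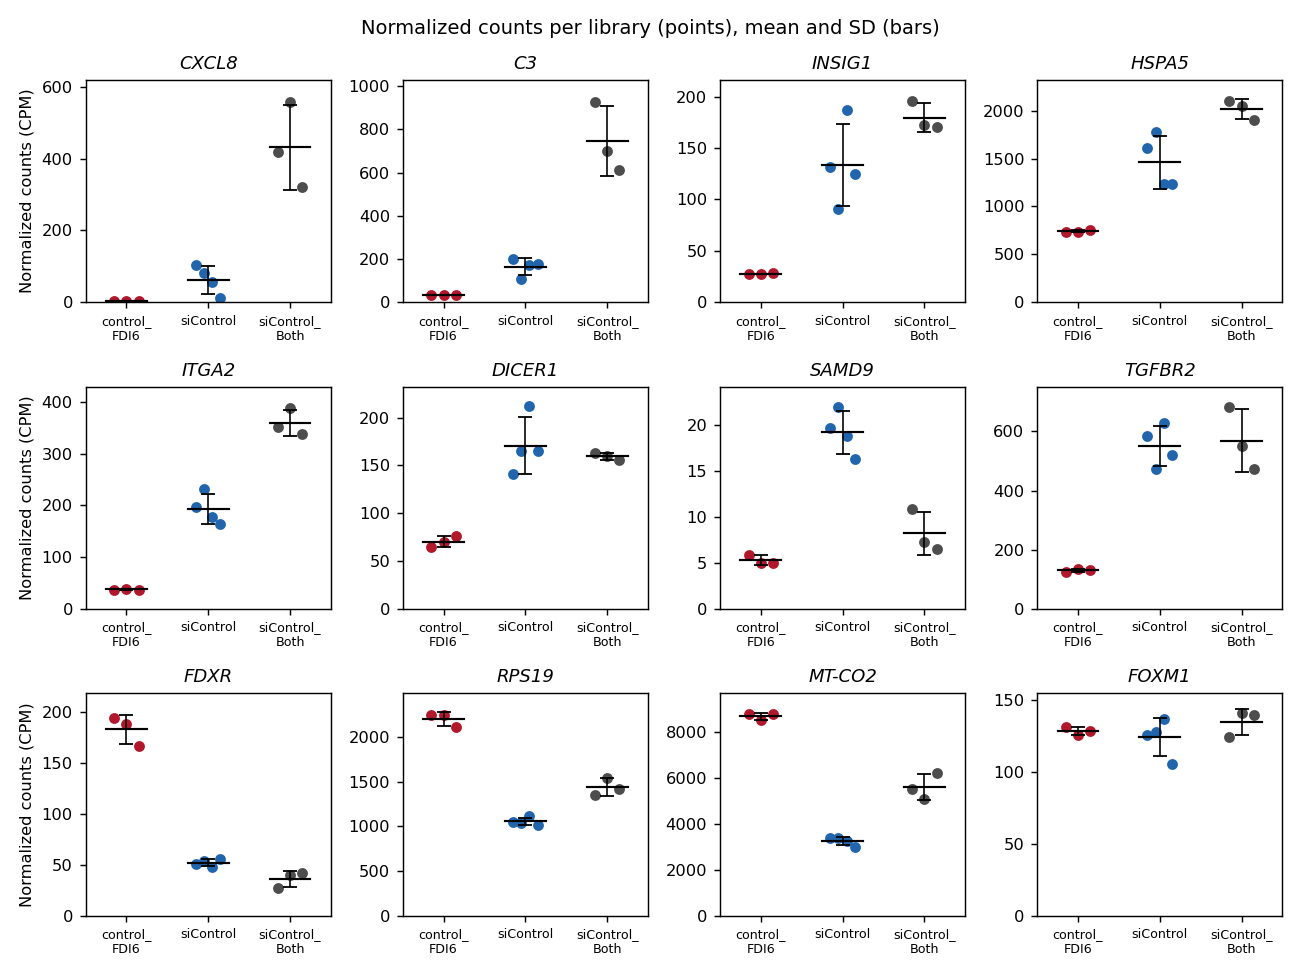
Normalized counts (CPM) of 12 genes are plotted for each library as points, with the mean as a horizontal line and the SD as bars, for control_FDI6 (n = 3), siControl (n = 4) and siControl_Both (n = 3). CXCL8, C3, INSIG1, HSPA5, ITGA2, TGFBR2 and DICER1 are lowest in control_FDI6, FDXR, RPS19 and MT-CO2 are highest there, SAMD9 is highest in siControl, and FOXM1 overlaps across the groups.

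Interferon-stimulated genes were called in both directions. Among 35 tested of 42, 3 were called higher and 10 lower in control_FDI6, with a median of −0.28, and 2 of the 10 passed the filter through siControl alone. The shares were 8.6% and 28.6%, against 12.4% and 15.4% of all genes. The interferon genes IFNB1, IFNL2 and IFNL3 had no counts in any of the 10 libraries. SAMD9, an antiviral factor, had 5.91, 5.04 and 5.02 in control_FDI6, 19.7, 22.0, 18.8 and 16.3 in siControl and 10.9, 7.32 and 6.51 in siControl_Both. It was called lower in control_FDI6 at −1.85 (adjusted p = 1.32e-05), and siControl_Both lay closer to control_FDI6 than to siControl. SAMD9L (−1.68), its neighbour and relative, and the partners PARP9 (−0.87) and DTX3L (−0.64) were called lower too, but DTX3L was at −0.57 and not called without replicate 3 of siControl.

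Of 20 listed sensors of foreign RNA and their partners 12 passed the filter, and 7 of these lay within 1.5-fold. In control_FDI6 2 of the 12 were called lower (16.7%, near the 15.4% of all genes) and none higher, and once the trends with GC content and length were removed the kinase gene IKBKE was called lower in place of these 2. The endosomal receptor gene TLR3 (−0.98) and ZC3HAV1 (−0.71), which encodes the antiviral protein ZAP, were these 2, TLR3 not called against all 7 scrambled libraries taken as 1 group (adjusted p = 0.0876). The PKR gene EIF2AK2 (−0.30), the MDA5 gene IFIH1 (−0.04) and the adaptor gene MAVS (0.07) lay within 1.5-fold.

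In the machinery of small RNA silencing, 4 of 16 genes were called lower in control_FDI6 (25.0%, against 15.4% of all genes) and none higher. Once the trends with GC content and length were removed 1 was called lower and none higher. DICER1, the nuclease that cuts small RNA precursors, had 64.3, 70.3 and 76.0 in control_FDI6, 141, 165, 212 and 165 in siControl and 163, 159.8 and 155 in siControl_Both. The transfected groups overlapped each other and lay above control_FDI6, at a log2 fold change of −1.28 (adjusted p = 5.57e-05) that became −0.70 once the trends with GC content and length were removed. TNRC6A (−0.78), TNRC6B (−0.70) and AGO2 (−0.62), which form the silencing complex, were not called in that fit, and AGO2 was at −0.56 and not called without replicate 3 of siControl.

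Genes of the extracellular matrix and of the TGF-beta response were lower in control_FDI6. Of 34 tested genes 20 were called lower (58.8%) and none higher, with a median of −1.0. Of the 20, 2 passed the filter through siControl alone, and 8 of the list were called higher in siControl_Both than in siControl. ITGA2, the collagen-binding integrin subunit, had 37.0, 37.9 and 36.9 in control_FDI6, 198, 231, 177 and 163 in siControl and 352, 388 and 339 in siControl_Both. These 3 ranges did not overlap, and the log2 fold change was −2.37 (SE 0.118, adjusted p = 4.57e-06). TGFBR2, the type II receptor of TGF-beta, had 124, 136 and 129 in control_FDI6 against 585, 472, 627 and 519 in siControl, a 4.24-fold difference, and 681, 552 and 472 in siControl_Both, which overlapped siControl. Fibronectin, FN1, had 478, 479 and 479 against 1394, 1002, 888 and 1665 (log2 −1.37), with far more spread among the transfected libraries than in control_FDI6. The integrin subunit gene ITGB1 (−1.13), the laminin chain gene LAMC1 (−0.94), the collagen gene COL5A1 (−2.23) and the crosslinking enzyme gene TGM2 (−1.23) were called lower.

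Sterol synthesis and uptake formed the next group. These enzymes make cholesterol from acetyl-CoA, and SREBP2 raises them when membranes run short of it. Of 25 genes 15 were called lower in control_FDI6 and 2 higher, with a median of −0.74. INSIG1, which holds the sterol-sensing complex in the endoplasmic reticulum, had 27.3, 27.2 and 27.7 in control_FDI6, 132, 90.9, 187 and 124 in siControl and 196, 172 and 171 in siControl_Both. The control_FDI6 values lay below every transfected library, and the 2 transfected groups overlapped. The log2 fold change was −2.28 (SE 0.212, adjusted p = 3.6e-05). SQLE, the squalene epoxidase, had 83.9, 83.0 and 91.6 against 165, 152, 174 and 158, a 1.89-fold difference with no overlap. HMGCS1 (−0.99), an early enzyme of the pathway, and SREBF2 (−0.81), which encodes SREBP2 itself, were called lower. PMVK (0.82) and TM7SF2 (0.90), enzymes of the middle and late pathway, were the 2 called higher, and neither kept its call once the trends with GC content and length were removed.

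In fatty acid metabolism 12 of 21 genes were called lower in control_FDI6 and 1 higher, and 7 and 1 once the trends with GC content and length were removed. The stearoyl-CoA desaturase gene SCD (−1.64), the acyl-CoA synthetase genes ACSL4 (−2.02) and ACSL3 (−1.09) and the elongase genes ELOVL6 (−0.97) and ELOVL5 (−0.70) were among those lower. FASN, the fatty acid synthase, lay within 1.5-fold (−0.19). The motif TCACNCCAC of the sterol regulatory element was found in 1 of 18 sterol gene windows (5.56%), that of SREBF2, and in 396 of 35116 windows overall (1.13%).

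Chaperones and folding enzymes of the endoplasmic reticulum were also lower in control_FDI6. Of 21 genes 16 (76.2%) were called lower in control_FDI6 and none higher, with a median of −0.84, and 5 were called higher in siControl_Both than in siControl. Several of these genes carry an ER stress response element, which the factors ATF6 and NF-Y read, and the matches of HSPA5 and HSP90B1 are printed with 4 flanking bases on each side. The capitals mark the match to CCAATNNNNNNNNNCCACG, and the sequences are from RefSeq on GRCh38.p14, on the minus strand at chr9:125241387-125241413 for HSPA5 and on the plus strand at chr12:103930212-103930238 for HSP90B1.
HSPA5: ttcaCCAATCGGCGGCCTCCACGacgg
HSP90B1: ctgaCCAATCGGAAGGAGCCACGcttc
This motif stood in 6 of the 20 chaperone windows (30.0%), those of CALR, CANX, CRELD2, HSP90B1, HSPA5 and XBP1, and in 27 of all 35116 windows (0.0769%), on either strand.

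HSPA5, the luminal chaperone BiP, had 737, 732 and 751 normalized counts in control_FDI6, 1614, 1776, 1230 and 1231 in siControl and 2106, 2052 and 1906 in siControl_Both. The groups did not overlap, and the log2 fold change was −0.98 (SE 0.131, adjusted p = 0.000265). HSP90B1, the luminal HSP90, had −1.0. The cochaperone genes DNAJB9 (−1.87) and DNAJC3 (−1.51) and the degradation genes SEL1L (−1.06) and EDEM1 (−1.01) were lower as well. DDIT3, which encodes the stress factor CHOP, was called lower at −1.58.

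Immediate early and AP-1 genes, which growth factors and stress switch on within minutes, gave 14 calls lower and 1 higher among 27, with a median of −0.67. Against siControl, siControl_Both had 13 called higher and 2 lower. EGR1 (−1.99) and KLF6 (−1.47), zinc finger factors, and DUSP4 (−1.08) and SPRED1 (−1.09), which restrain ERK signalling, were called lower in control_FDI6. JUND (0.76), a constitutive AP-1 subunit, was the gene called higher.

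Among glycolytic and hypoxia-responsive genes 16 of 37 were called lower and 2 higher, with a median of −0.65 that became −0.34 without replicate 4 of siControl. HIF1A (−1.11), the oxygen-regulated factor, SLC2A1 (−0.96), a glucose transporter gene, the demethylase gene KDM3A (−0.68) and the aldolase gene ALDOA (−1.17) were called lower. For ALDOA, 42.8% of the exons overlap another gene on the same strand. Its mean normalized counts were only 3.28 in control_FDI6, 7.37 in siControl and 16.2 in siControl_Both, where GAPDH had 2382 to 2504 in siControl. The ALDOA call is therefore uncertain as a measure of aldolase expression, and the part of the overlap was not tested. CA9, a carbonic anhydrase gene that marks hypoxia, had 4.35, 2.84, 2.33 and 29.8 in siControl against 1.34, 0.624 and 1.5 in control_FDI6, and its fold change of −3.09 became −1.46 without replicate 4. Its call was lost without any 1 of the control_FDI6 libraries, at −3.22, −2.78 and −3.33. LDHA, the lactate dehydrogenase of anaerobic glycolysis, lay within 1.5-fold (−0.06), and ADM (1.06), a vasodilator peptide gene, was called higher than in siControl but not against all 7 scrambled libraries (adjusted p = 0.0828).

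Secreted proteins of the hepatic type, such as fibrinogen and complement factors, gave 12 genes called lower and 1 higher among 25. The fibrinogen beta chain gene FGB had 21.2, 19.6 and 22.3 in control_FDI6 and 74.9, 89.1, 51.6 and 338 in siControl, where replicate 4 was several times the others, and its fold change was −2.72 with that library and −1.77 without it. FGG (−2.88, and −2.04 without replicate 4), the gamma chain, and the complement regulators CD55 (−1.73) and C4BPA (−2.76) were called lower. FOXA2, an endodermal factor, was the gene called higher (0.92), while its relative FOXA1 was called lower (−0.99) but not against all 7 scrambled libraries taken as 1 group (adjusted p = 0.157).

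Among other lists, 9 of 30 lysosomal and autophagy genes were called lower (30.0%, against 15.4% of all genes) and none higher. LAMP2 (−1.20), a lysosomal membrane protein gene, LIPA (−0.89), the acid lipase gene, MITF (−1.04) and WIPI1 (−1.54) were among those lower. Glucocorticoid-responsive genes gave 6 calls lower and 1 higher among 16, or 37.5% and 6.25%, against 15.4% and 12.4% of all genes. The calls were 4 and 2 once the trends with GC content and length were removed, and 5 and 2 without replicate 4 of siControl. GLUL (−1.08), glutamine synthetase, SCNN1A (−1.25), a sodium channel subunit gene, and TSC22D3 (−1.23) were lower. PER1 (0.79), a clock gene, was higher, and FKBP5 lay within 1.5-fold (−0.35). Of 7 metallothionein and zinc genes 4 were called lower, namely MT1X (−2.31), the zinc exporter gene SLC30A1 (−0.92), SLC39A10 (−0.74) and MTF1 (−0.71), and of these MT1X alone was called once the trends with GC content and length were removed. YAP and TEAD targets split, with 5 of 23 called in each direction (21.7% each, against 12.4% higher and 15.4% lower of all genes). NT5E (−2.18) and THBS1 (−0.76) were lower and AMOTL2 (1.46) and AJUBA (0.83) higher. The counts were 4 higher and 8 lower against the 7 scrambled libraries, and 4 and 7 without replicate 4 of siControl. Once the trends with GC content and length were removed they were 4 and 2. The lower share was then 8.7%, against 10.5% of all genes.

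**Figure D4:**
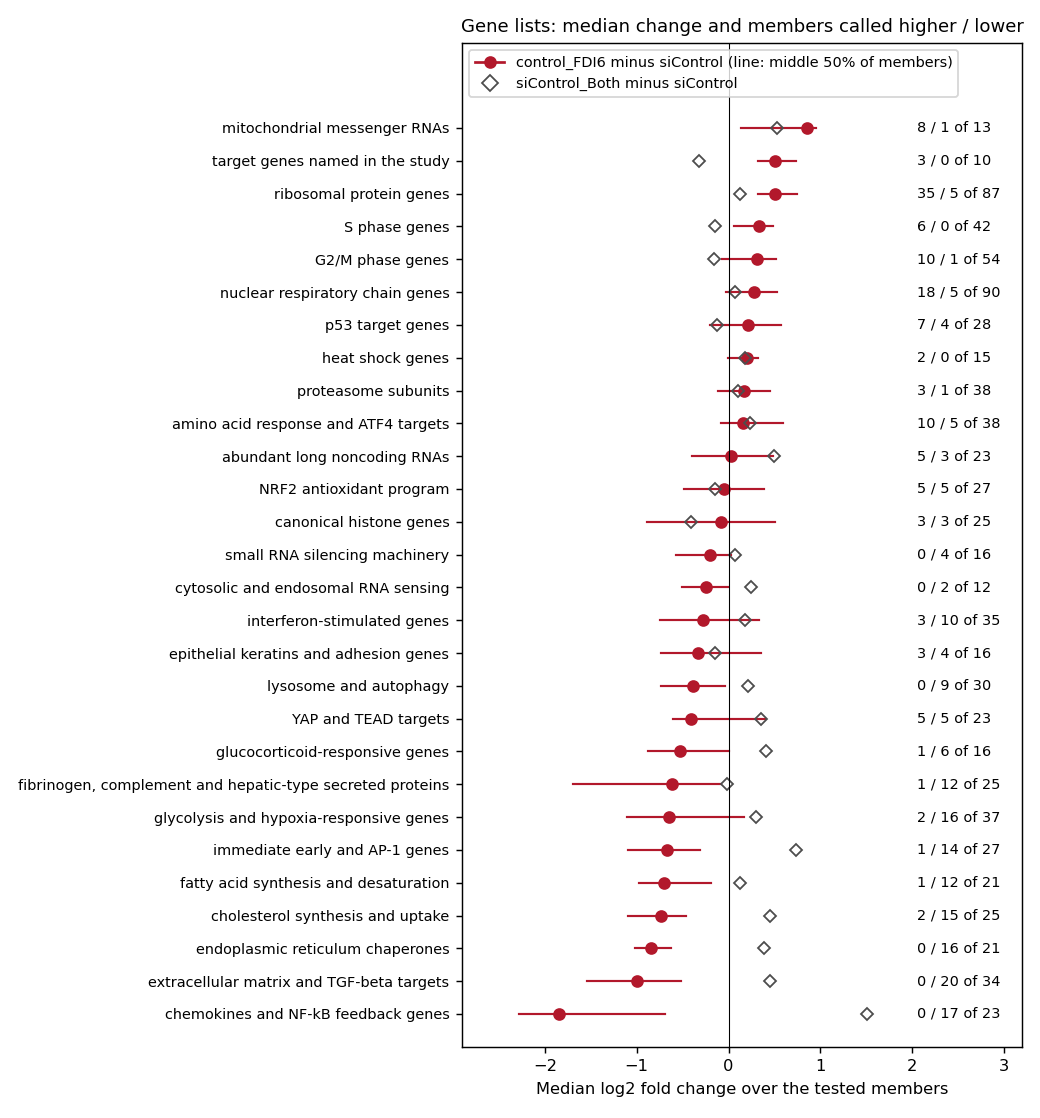
For each gene list with at least 10 tested members the filled circle is the median log2 fold change of control_FDI6 minus siControl over the tested members, the line spans the middle 50% of members and the open diamond is the median for siControl_Both minus siControl. The numbers at the right give members called higher and lower in control_FDI6 among those tested, from 8 and 1 of 13 mitochondrial messenger RNAs at the top to 0 and 17 of 23 chemokine and NF-kB genes at the bottom.

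The shares of the most abundant RNAs stood apart between the groups. Mitochondrial genes took 8.14% ± 0.154 (SD, n = 3) of gene counts in control_FDI6, 5.25% ± 0.370 (n = 4) in siControl and 6.0% ± 0.821 (n = 3) in siControl_Both. Ribosomal protein genes took 6.60% ± 0.246, 4.63% ± 0.157 and 4.68% ± 0.280, and the 50 highest genes of each library took 20.1% ± 0.0621, 15.4% ± 0.330 and 15.9% ± 0.630. For these 3 shares no control_FDI6 library overlapped either transfected group. The share of pairs that could not be assigned to a single gene was 10.99% ± 0.233 against 9.50% ± 0.130. Each of these 4 differences had an exact two-sided permutation p of 0.0571, the smallest that 3 libraries against 4 allow, so none could reach 0.05 (0.0785 after Benjamini-Hochberg adjustment over 11 shares).

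Of 87 ribosomal protein genes 35 were called higher in control_FDI6 and 5 lower, with a median of 0.51, and 19 and 5 once the trends with GC content and length were removed. RPS19, a small subunit protein gene, had 2253, 2251 and 2111 normalized counts in control_FDI6, 1048, 1041, 1112 and 1018 in siControl and 1354, 1547 and 1419 in siControl_Both. Its groups did not overlap, and the difference from siControl was 2.09-fold (adjusted p = 5.7e-06). RPS15 (1.18), RPL13 (0.86) and RPL32 (0.85) were called higher. The 5 called lower were RPL17 (−0.89), RPL23A (−0.79), RPL26 (−0.92), RPL30 (−1.01) and RPS23 (−1.05). Many pseudogenes share reads with this family, and for RPL17 and RPL30 32.9% and 40.8% of the exons overlap another gene on the same and the opposite strand, so single members are uncertain. RPL17 was not called without replicate 2 or without replicate 3 of control_FDI6 (−0.77 and −0.78), and RPL32 was under 1.5-fold against all 7 scrambled libraries (log2 0.58, adjusted p = 0.0133).

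All 13 messenger RNAs of the mitochondrial genome were tested, and 8 were called higher and 1 lower, or 4 and 1 against the 7 scrambled libraries. MT-CO2, a subunit of cytochrome c oxidase, had 8782, 8501 and 8768 in control_FDI6, 3375, 3365, 3265 and 3001 in siControl and 5504, 5086 and 6219 in siControl_Both. It was highest in control_FDI6 in every library, at 2.67-fold over siControl (adjusted p = 4.11e-06). MT-CO3 (1.19), MT-ND4 (1.11) and MT-CYB (0.93) were called higher than in siControl but not against the 7 scrambled libraries (adjusted p = 0.0599, 0.0748 and 0.137). MT-ND5 lay within 1.5-fold (0.14), and MT-ATP8, the one called lower (−2.37), overlaps MT-ATP6 over 22.2% of its length.

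Respiratory chain genes of the nucleus gave 18 calls higher and 5 lower among 90, or 20.0% and 5.6%, against 12.4% and 15.4% of all genes. In either direction the share was 25.6%, near the 27.9% of all genes. NDUFS8 (1.07), NDUFB10 (0.90) and NDUFB7 (0.85), complex I subunit genes, and NDUFAF8 (1.5), a gene for its assembly, were among those higher, and the count became 10 and 7 once the trends with GC content and length were removed.

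Genes of the cell cycle were called mostly in 1 direction. Of 54 genes of the G2 and M phases 10 were called higher and 1 lower, and of 42 S phase genes 6 were called higher and none lower, shares of 20.4% and 14.3% against 27.9% of all genes. With upper-quartile scaling 17 G2 and M phase genes (31.5%) and 10 S phase genes (23.8%) were called higher and none lower. Of all genes 28.6% were then called in either direction. The G2 and M share in either direction thus lay below or above all genes by the scaling, while the S phase share stayed below. Called higher alone, the shares were 18.52% and 14.29% against 12.4% of all genes. With upper-quartile scaling the 31.5% and 23.8% stood against 15.96% of all genes called higher. The G2 and M share was therefore above that of all genes in this direction under either scaling. The S phase share was near that of all genes with scaling by the trimmed mean of M values and above it with upper-quartile scaling. The medians were 0.31 and 0.33 and those of siControl_Both against siControl −0.16 and −0.15. UBE2C (1.07), which feeds the anaphase-promoting complex, BIRC5 (0.82), the survivin gene, TACC3 (0.86) and KIF2C (0.66), which act on spindle microtubules, were higher. MCM5 (0.85), a helicase subunit gene, CHAF1B (0.60), a chromatin assembly gene, and the nuclease gene EXO1 (0.61) were called higher with MRPL36 (0.61), a mitochondrial ribosomal gene on the S phase list. Once the trends with GC content and length were removed 12 S phase genes and 14 G2 and M phase genes were called higher and none lower, and 11 S phase genes were called higher against the 7 scrambled libraries. Without replicate 4 of siControl, 2 S phase genes were called higher in place of 6, or 4.762% against 13.42% of all genes, which was below all genes. For the G2 and M phases 9 were called higher in place of 10, or 16.67%. In that fit CHAF1B (0.56), EXO1 (0.56) and MRPL36 (0.58) lost their calls. EXO1 also lost its call without replicate 3 of control_FDI6 (0.55) or replicate 2 of siControl (0.58).

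Targets of p53 gave 7 calls higher and 4 lower among 28, or 25.0% and 14.3%, against 12.4% and 15.4% of all genes. Once the trends with GC content and length were removed 1 was called lower. The lower calls were 2 with upper-quartile scaling and 2 against the 7 scrambled libraries. FDXR (chr17:74862497-74873031, hg38), which encodes ferredoxin reductase and responds to p53, had 194, 189 and 167 in control_FDI6, 50.7, 54.1, 48.0 and 55.9 in siControl and 26.7, 39.7 and 41.9 in siControl_Both. It was 3.52-fold higher in control_FDI6 than in siControl (SE of log2 0.0774, adjusted p = 4.11e-06), and no control_FDI6 value overlapped a transfected one. CDKN1A (0.90), the p21 gene, BAX (0.94), a cell death effector, DDB2 (0.91), a DNA damage sensor, and the nuclease gene AEN (0.59) were called higher, while MDM2, the ubiquitin ligase gene that p53 also activates, lay within 1.5-fold (0.15) but was called higher once the trends with GC content and length were removed (0.69, adjusted p = 0.00204). AEN lost its call without replicate 1 of control_FDI6 (0.57) or replicate 4 of siControl (0.52). NRF2 targets were called in both directions, 5 and 5 of 27 (18.5% each, against 12.4% higher and 15.4% lower of all genes). The counts were 2 and 2 once the trends with GC content and length were removed. They were 4 higher and 2 lower against the 7 scrambled libraries and 5 and 2 with upper-quartile scaling. HMOX1 (1.51), the heme oxygenase gene, and OSGIN1 (1.22) were higher, the cystine transporter gene SLC7A11 (−0.69) was lower and NQO1 (0.31) lay within 1.5-fold, and 1 NRF2 target in place of 5 was called lower without replicate 4 of siControl.

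Genes of the amino acid response gave 10 calls higher and 5 lower among 38, or 26.3% and 13.2%, against 12.4% and 15.4% of all genes. SLC7A5, a transporter of large neutral amino acids, had 2813 to 2928 in control_FDI6 and 1079 to 1472 in siControl, a log2 fold change of 1.19 with no overlap. PSPH (0.90), the last enzyme of serine synthesis, and EIF4EBP1 (0.90), a repressor of translation, were higher, and the pseudokinase gene TRIB3 (−0.78) was lower. Of 38 proteasome subunit genes 3 were called higher (PSMB5 0.69, PSMB6 0.62 and PSMB9 0.77) and 1 lower (PSMA6 −1.74), and 23 lay within 1.5-fold. In all 10.5% of this list was called, against 27.9% of all genes. The calls were 1 higher and 2 lower once the trends with GC content and length were removed, 1 and 1 against the 7 scrambled libraries and 7 and 1 with upper-quartile scaling. PSMB6 was at 0.58 and not called without replicate 1 of control_FDI6. Heat shock genes had 2 called higher among 15 (13.3%, near the 12.4% of all genes) and 10 within 1.5-fold. The 2 were HSPA1A (0.80) and HSPA1B (0.80), near-identical copies whose reads cannot be apportioned. Once the trends with GC content and length were removed 1 was called higher.

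Among protein-coding genes with at least 100 counts per library on average and no overlap between the groups, the 12 with the largest change in each direction are named. Lower in control_FDI6 were IL33 (−5.25), an alarmin cytokine gene, CXCL8 (−4.83), CREB3L1 (−4.17), a transcription factor of secretory cells, CES1 (−3.95), a liver-type esterase gene, ZBTB20 (−3.95), STC1 (−3.76), a secreted glycoprotein gene, GREM1 (−3.72), a BMP antagonist, LGR6 (−3.61), a receptor for R-spondins, CEACAM6 (−3.59), TCN1 (−3.58), a cobalamin carrier, SLC26A9 (−3.58), an anion transporter gene, and HGF (−3.47), the ligand of MET. IL33, which passed the filter through siControl alone, had 0.322, 0.0480 and 0.160 in control_FDI6, 9.83, 6.87, 4.77 and 5.53 in siControl and 14.5, 4.19 and 2.10 in siControl_Both, so both transfected groups lay above control_FDI6 and overlapped each other. For ZBTB20, 43.0% of the exons overlap another gene on the same strand. CEACAM6 varied widely in siControl_Both, from 48.1 to 476, against 54.6 to 63.7 in control_FDI6 and 345 to 964 in siControl.

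Higher in control_FDI6 were DEGS2 (3.26), a sphingolipid hydroxylase gene, GFRA1 (2.81), the GDNF coreceptor, ANKRD2 (2.66), ATOH8 (2.16), a helix-loop-helix factor, DHRS2 (1.95), UPK3B (1.84), FDXR (1.81), CA8 (1.78), TERT (1.73), the telomerase reverse transcriptase, HAPLN3 (1.63), SUSD2 (1.61) and HSPA2 (1.56). DEGS2 had 14.3, 15.9 and 12.98 in control_FDI6 and 0.528, 0.859, 0.549 and 4.17 in siControl, where replicate 4 was the highest, and its fold change was 4.47 without that library. CA8 and SUSD2 were not called against the 7 scrambled libraries, at log2 0.18 (adjusted p = 0.858) and 0.95 (0.137).

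Of 23 abundant long noncoding RNAs 5 were called higher and 3 lower, or 21.74% and 13.04%, against 12.4% and 15.4% of all genes. The lower share was thus near that of all genes. The counts were 2 and 4 without replicate 4 of siControl and against the 7 scrambled libraries. They were 3 and 4 once the trends with GC content and length were removed. Without replicate 4 the higher share was 8.696%, below the 13.42% of all genes. With upper-quartile scaling it was 26.09%, above the 15.96% of all genes. MALAT1, a nuclear RNA of speckles, had 97.7, 120.1 and 128 in control_FDI6, 668, 781, 670.4 and 685 in siControl and 175, 146 and 167 in siControl_Both. The siControl libraries stood above both other groups, at log2 −2.60 for control_FDI6, and 83.7% of its exonic length is also covered by a gene on the other strand. By the same rule IGFL2-AS1 (−2.40) and CASC19 (−1.73) were lower and GACAT2 (1.94), the unnamed gene ENSG00000268205 (1.6) and LINC02870 (1.59) higher, and LINC02870 lost its call without any 1 of 5 libraries (1.41 to 1.62) while it was 2.54 without replicate 4 of siControl. NORAD (−0.92), which holds Pumilio proteins, was lower, and the small nucleolar host genes SNHG5 (0.70) and SNHG16 (0.72) were higher. Among 25 canonical histone genes, whose messages mostly lack a poly(A) tail, 3 were called in each direction. Together these were 24.0% of the list, near the 27.9% of all genes. The split was 0 higher and 5 lower once the trends with GC content and length were removed, with a median of −0.42 in place of −0.08, 3 and 1 against the 7 scrambled libraries and 5 and 3 without replicate 4 of siControl. H2BC11 (0.73) was higher, and the lower ones H4C3 (−4.38), H1-3 (−3.21) and H1-4 (−2.85) were not called against the 7 scrambled libraries and had passed the filter through siControl alone.

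The epithelial keratin gene KRT18 had 2366 to 2477 normalized counts in control_FDI6 and 1135 to 1644 in siControl, so this defining epithelial marker was abundant in both groups. KRT18 was called higher (0.73) and KRT19 (−2.19) and the claudin gene CLDN1 (−0.70) lower in control_FDI6. Of the 16 tested keratin and adhesion genes 3 were called higher and 4 lower, or 18.75% and 25.0%, against 12.4% and 15.4% of all genes. This list also holds the mesenchymal markers CDH2 and VIM, whose calls are not given here, so its counts are not of epithelial genes alone. The counts were 0 and 3 once the trends with GC content and length were removed. CLDN1 was at −0.57 and not called without replicate 2 of siControl. Alveolar type II genes summed to 211.4 to 213.9 normalized counts in control_FDI6, 232.7 to 291.1 in siControl and 294.5 to 344.1 in siControl_Both, with ETV5 (−0.73) called lower among 5 of 12 tested and the surfactant gene SFTPA2 without counts in any library. Fibroblast markers, 6 of 9 tested, summed to 26.6 to 28.9, 26.3 to 40.9 and 38.0 to 53, with COL3A1 (−2.28) and LUM (−1.87) called lower and the smooth muscle actin gene ACTA2 (0.80) higher, although COL3A1 overlapped between the groups. Immune markers, 1 of 8 tested, summed to 3.42 to 4.65, 4.63 to 7.93 and 4.81 to 8.34, with CD14 (−0.72) called lower, though not without replicate 1 or 3 of control_FDI6 or replicate 1 of siControl (−0.64, −0.62 and −0.56), and CD3E and FCGR3A at 0. Endothelial markers, 2 of 5 tested, summed to 0.0480 to 0.481, 1.58 to 4.96 and 1.84 to 2.98, and both PECAM1 (0.107, 0 and 0.0534 in control_FDI6) and CDH5 (0.161, 0 and 0.374) were near 0 there and passed the filter through siControl alone, so their calls as lower rest on that. The part of other cell types in the results was not tested, and in bulk RNA fewer cells of a type and less RNA per cell cannot be told apart.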

How the data were processed

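RNA-seq libraries of A549 cells were taken as gene counts. Per the labels and the study's methods, the authors trimmed the paired reads with Trim Galore, aligned them to hg38 with STAR and counted pairs on GENCODE genes with HTSeq, whose deposited counts were not normalized. Tool versions and the strand setting are not given in the sources used here, so overlapping genes share uncertainty. Summary lines that name no gene (pairs with no feature, ambiguous, not aligned or not unique) stayed out of library sizes and tests and held the remainder of pairs, with 80.4% counted on genes in control_FDI6 and 81.0% in siControl on average. In siControl_Both 77.2% were counted on genes and 7.8% were not aligned.

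Counts of 3 control_FDI6 and 4 siControl libraries were fitted alone with the quasi-likelihood test of edgeR 4.0.16 (R 4.3.3), after filterByExpr and TMM scaling, and adjusted by the Benjamini-Hochberg method over all 16125 genes. The same test, each time on the libraries compared, was run for siControl_Both against siControl and for control_FDI6 against the 7 scrambled libraries. It was also run for control_FDI6 against siControl_Both, whose calls are not described here. Calls needed both an adjusted p under 0.05 and a change of more than 1.5-fold. On simulated data with known changes the fit was tested, with the recovery kept apart from these results. Gene names, lengths and GC content came from GENCODE V44 on hg38, where 58207 of 58721 identifiers matched. TPM used the merged length of all exons of a gene, and the correction for GC content and length used its canonical transcript. Promoter windows were from RefSeq on GRCh38.p14. Cell-cycle lists came from Seurat 5.3.0, and exact permutation tests from SciPy 1.17.1 (Python 3.11.15). No pair of libraries agreed within sampling noise, with a chi-square per gene of at least 3.58.

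The groups and the gene lists were chosen with earlier results of these data known. Genes named are MYBL2, FOXM1 and the study's target genes; the 10 of highest TPM; the 12 protein-coding and 3 long noncoding genes with the largest calls in each direction, without overlap and with a mean of at least 100 counts; up to 4 called members of each list by lowest p; and the 5 of highest TPM within 1.5-fold. Other members of the lists that the text names were chosen after their values were seen. Alternatives were DESeq2 1.42.0, other scalings and filters, a test against the fold threshold (glmTreat), a replicate block, a correction for GC content and length and leaving out each library. The total of pairs sets the precision, and no interval here covers more than the spread between libraries. The FDI-6 and knockdown libraries were not analysed here. Some genes that this rule or the lists hold are not reported here.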

Additional observations from a re-analysis of the deposited data

Results flagged for a closer look

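Among 211 values of siControl tested for 1 library apart from the other 3, 16 had a gap to the nearest other value large enough relative to the group's range to pass Dixon's 95% critical value, where chance gives about 1 in 20. Groups of 3 libraries, control_FDI6 included, were not tested in this way.

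Replicate 4 of siControl stood apart in genes of several kinds. Its normalized counts were 29.8 for CA9, a hypoxia marker, against 2.33 to 4.35 in the other 3 libraries, 338 for FGB, the fibrinogen beta chain, against 51.6 to 89.1, and 4.17 for DEGS2 against 0.528 to 0.859. The long noncoding LINC02870 had 6.85 there against 0.858 to 1.79 and GACAT2 6.40 against 2.09 to 2.80, and GAPDH had 2504 against 2382 to 2391. In the same library mitochondrial genes took 4.70% of gene counts against 5.36% to 5.48%, and the 50 highest genes took 14.9% against 15.5% to 15.6%.

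Replicate 3 of siControl was apart for DUSP4, an ERK phosphatase gene (397 against 535 to 558), CCNA2, cyclin A (117 against 89.7 to 91.1), FASN (856 against 634 to 656) and the histone gene H4C3 (5.87 against 4.27 to 4.52). Replicate 2 was apart for EIF2AK2, the PKR gene (117.0 against 108.6 to 109.5), HSPA1B (70.0 against 38.3 to 43.6) and MALAT1 (781 against 668 to 685). Replicate 1 was apart for LAMP2 (186 against 168 to 170.1). What set these libraries apart was not tested.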

How the results depend on the processing

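The number of genes called between control_FDI6 and siControl stayed within 1.5 times 4493 under every alternative but 1. It was 3357 with the correction for GC content and length, 4501 with DESeq2, 4918 with no filter and 3854 with at least 10 counts, and leaving out 1 library gave 3947 to 4585. The test against the 1.5-fold threshold (glmTreat) called 1825 genes, 637 higher and 1188 lower, and in siControl_Both against siControl it called 402, the construction of that test being stricter. The replicate block called 4572 genes, but the numbers did not pair the libraries: same-numbered libraries correlated at 0.064, −0.048 and 0.013 in their deviations from the group means over 11523 genes, and the block says nothing of a pairing here. Higher calls made up 44.7% of all calls, 49.4% with the GC and length correction, 37.6% with no filter and 55.8% with upper-quartile scaling.

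Over the named genes, lists and shares, 25 values changed sign under an alternative and 183 that had been called were no longer past the threshold. The 25 belonged to genes within 1.5-fold, and the cause was not tested. With the correction for GC content and length the log2 fold change became −0.1316 for TMSB10, 0.3091 for EIF2AK2, 0.1734 for IFIH1, 0.0576 for LDHA and −0.071 for RELA, and with the replicate block added −0.0534, 0.2765, 0.1713, 0.1311 and −0.1171, and −0.0463 for FOXM1. The replicate block alone gave −0.0184 for FOXM1, 0.0162 for LDHA and −0.026 for BORA. No filter gave −0.0013 for FOXM1 and −0.0054 for BORA, upper-quartile scaling 0.05 for IFIH1 and 0.0231 for LDHA, and the 7 scrambled libraries −0.0195 for MAVS and −0.1799 for RELA. Leaving out 1 library gave −0.0206 to 0.1022 for FOXM1, −0.1616 to 0.0624 for IFIH1, −0.1007 to 0.0146 for LDHA and −0.0283 to 0.1092 for BORA. Depth limits genes with few counts, which the filter removed, and 3 libraries against 4 limit every test of a single share to p of 0.0571 or more.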
